A study of Mus musculus with 57 samples.

Results

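The 6 genes followed here are receptors of the Siglec family, Siglec1, Siglece, Siglecf, Siglecg, Cd33 and Cd22, which were found by their symbols in both deposited count tables: 6 of the 50565 genes listed in the table of male and female animals and of the 53278 listed in the table of the LPS experiment. Siglech, the remaining Siglec of this family with a high level in these cells, was left out of the group. All RNA came from CD11b-positive cells of the brain of adult mice, labelled as microglia, and was sequenced in bulk after poly(A) selection. Wild-type (WT) mice were compared with littermates deficient in P2RY12 (KO), the purine receptor that microglia use to sense extracellular nucleotides; the labels do not describe the allele. In the sex experiment the groups were male WT (n = 4), male KO (n = 5), female WT (n = 4) and female KO (n = 5), and no per-sample label gives a treatment. In the LPS experiment, mice of each genotype carried the label LPS, an intraperitoneal injection of lipopolysaccharide at 1 mg/kg, or the label ns, which is used as written because the labels do not define it. Ages beyond adult were not given in the sources used here. The labels do not say that each library is a separate animal, so p-values measure the spread between libraries.

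Siglecs are immunoglobulin-like receptors that bind sialic acids, the sugars that cap glycans on most vertebrate cells. Sialoadhesin, encoded by Siglec1, is a long adhesion receptor of macrophages without an inhibitory motif of its own and is widely used as a marker of the interferon response. Siglece, Siglecf, Siglecg and Cd22 carry tyrosine motifs (ITIMs) that recruit the phosphatases SHP-1 and SHP-2 and dampen signalling. Siglece is found on microglia, neutrophils and macrophages, Siglecf is best known on eosinophils, Siglecg and Cd22 are best known as restraints on B cells, and Cd33 is a Siglec of myeloid cells.

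In the coordinates of the deposited sex table (GRCm39), Siglecf (chromosome 7, 43000496 to 43008899, plus strand), Siglecg (chromosome 7, 43057623 to 43067773, plus strand), Cd33 (chromosome 7, 43176823 to 43186679, minus strand) and Siglece (chromosome 7, 43300494 to 43309585, minus strand) lie within 309090 bases of each other. Cd22 lies elsewhere on chromosome 7 (30564829 to 30579767, minus strand) and Siglec1 on chromosome 2 (130911140 to 130928697, minus strand). None of the 6 gene spans overlapped another gene of the table. Of the 50-base words in each gene's annotated exons, between 0% (Siglece) and 4.48% (Siglecg) also occurred in another gene, so few reads could be shared with a relative. The RefSeq promoter table (GRCm38.p6) held 6 entries for 5 of the 6 members, Siglec1 having none. The 250 bases before the start are printed for Siglece and Siglecg because these genes of the same stretch, with Cd33 between them, moved in opposite directions after LPS. Capitals mark matches to GAGGAA, the core bound by the myeloid factor PU.1, here all on the opposite strand.
Siglece, chr7:43660162-43660411, minus strand: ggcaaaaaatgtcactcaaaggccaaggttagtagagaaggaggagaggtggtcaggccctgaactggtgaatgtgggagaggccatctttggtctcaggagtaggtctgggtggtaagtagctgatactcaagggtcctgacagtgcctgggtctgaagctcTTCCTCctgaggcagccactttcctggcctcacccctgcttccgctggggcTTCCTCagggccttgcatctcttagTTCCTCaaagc
Siglecg, first start, chr7:43407989-43408238, plus strand: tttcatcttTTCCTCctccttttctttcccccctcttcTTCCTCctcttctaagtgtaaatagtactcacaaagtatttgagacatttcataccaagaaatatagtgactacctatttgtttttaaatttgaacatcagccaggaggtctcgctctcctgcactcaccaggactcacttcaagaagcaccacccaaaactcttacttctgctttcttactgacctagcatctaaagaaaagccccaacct
Over the 300 bases of each entry, 250 before and 50 after the start, and on both strands, GAGGAA matched 3 times for Siglece, 2 times for the first start of Siglecg and 0 times for the other, 1 time each for Siglecf and Cd33, and 0 times for Cd22. Of all 32851 promoters in the table, 28.3% held at least 1 match. The interferon-stimulated response element (GAAA, any 2 bases, GAAA) and the STAT element TTCNNNGAA, held by 3.44% and 8.3% of all promoters, had 0 matches in the 6 entries.

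Total counts, in units of 1e6 (M), ranged from 58.5 to 318.5 M per animal in the sex table (median 92.0 M) and from 15.9 to 168.4 M in the LPS table (median 24.7 M). P2ry12 was 10.7-fold lower in KO than in WT animals over both sexes, with no overlap between genotypes within either sex (3007 to 5928 in WT and 309 to 526 in KO, in CPM, counts scaled to a common library total), so transcript remained detectable in the KO. In the LPS experiment, 4 WT libraries that share the library number 2 went against their treatment label: the WT ns libraries 1 and 5 had Saa3, an acute-phase gene, at 1814 and 2426 CPM and the WT LPS libraries 1 and 6 had it at 1.61 and 2.98 CPM, against 1.53 to 64.7 CPM in the other WT ns and 1417 to 9329 CPM in the other WT LPS libraries. These 4 libraries are shown apart and enter no comparison unless stated, which leaves 6 WT ns, 6 WT LPS, 8 KO ns and 8 KO LPS libraries, the WT LPS libraries 8 and 9 being counted as 1 because their counts differed far less than those of any other pair (chi-square per degree of freedom 1.86 against at least 8.32). The libraries also fall into 2 library sets, which differ by sex: Xist, expressed from the inactive X, was at 0.691 to 2.14 CPM in set 1 and at 740 to 2592 CPM in set 2, so set and sex cannot be told apart. The microglial marker Tmem119 was present in every library of the LPS table (548 to 3821 CPM) and of the sex table (1043 to 1912 CPM).

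Compared per kilobase of exon, Cd33 stood highest in WT ns libraries, at 181 ± 20.1 CPM per kb (SD, n = 6), followed by Siglece at 72.5 ± 7.01 and Siglecf at 13.9 ± 2.23 CPM per kb. Siglec1 at 6.48 ± 2.88, Siglecg at 4.45 ± 2.16 and Cd22 at 3.66 ± 0.36 CPM per kb came last. The libraries of Siglecg (2.70 to 7.56) overlapped those of Siglec1 (4.43 to 12.1) and of Cd22 (3.18 to 4.09), while Siglec1 and Cd22 did not overlap. In WT LPS libraries the order was different: Siglece reached 167 ± 31.9, Cd33 was at 118 ± 60.4 and Siglec1 at 43.9 ± 22.7 CPM per kb, while Siglecf (5.41 ± 2.55), Cd22 (2.87 ± 1.4) and Siglecg (0.264 ± 0.141 CPM per kb) formed the lower end. The top places of Siglece and Cd33 in WT LPS lay within the spread of their libraries.

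LPS split the group in both genotypes: Siglec1 and Siglece rose, Siglecf and Siglecg fell, Cd33 was lower on average with a call that depended on the libraries used, and Cd22 did not pass the test. In KO libraries 5 of the 6 members were called at an adjusted p under 0.05 by edgeR's quasi-likelihood test, 2 higher and 3 lower, where 26.2% of the 17954 genes tested were called (11.9% higher and 14.2% lower). In WT libraries 4 of 6 were called, 2 in each direction, where 28.1% of genes were called (13.5% higher and 14.6% lower). All 6 members passed the filter on low counts. The median log2 fold change over all genes tested was -0.03 in KO and -0.02 in WT.

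**Figure D1:**
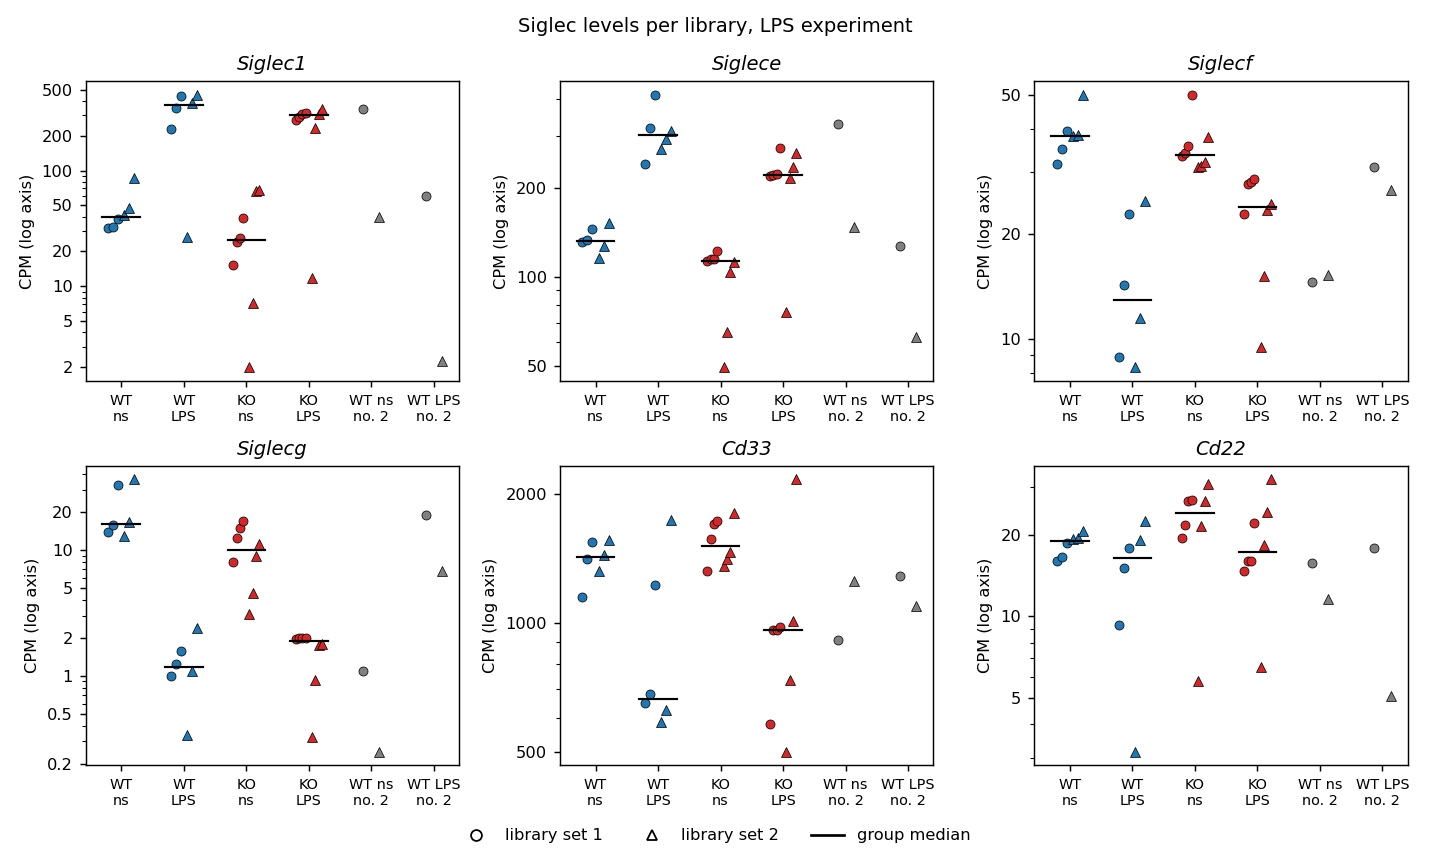
Level of each Siglec gene in every library of the LPS experiment, in CPM on a log axis; circles are library set 1, triangles library set 2, horizontal lines group medians, and grey symbols the WT libraries of number 2 (no. 2), which enter no comparison. Siglec1 and Siglece sit higher and Siglecf and Siglecg lower under LPS in both genotypes. For Siglecg and Siglecf, grey symbols labelled WT ns sit within or below the range of the other WT LPS libraries. Those labelled WT LPS sit above that range.

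Siglec1, the adhesion receptor, had the largest rise. WT ns libraries stood at 31.7 to 86.4 CPM (median 39.8), and WT LPS libraries at 26.7 CPM in library 7 and at 227 to 453 CPM in the other 5 (median 366). KO ns libraries ran from 2 to 67.5 CPM (median 25.1), and KO LPS libraries stood at 11.8 CPM in library 5 and at 233 to 339 CPM in the other 7 (median 300). In each LPS group 1 library lay within the ns range (KO) or below it (WT), and all others lay above it. The log2 fold change was 3.04 ± 0.68 (SE) in KO (8.21-fold, adjusted p = 0.0011) and 2.72 ± 0.77 in WT (6.59-fold, adjusted p = 0.00864; edgeR). Within library set 1 the changes were 3.55 in KO and 3.34 in WT, and within set 2, which holds the low libraries, 2.72 (adjusted p = 0.233) and 2.39 (adjusted p = 0.334).

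Macrophages of the brain's borders are another cell type that can carry Siglec1, and their markers are given beside it. Of the 8 border-associated macrophage markers 0 rose, 3 fell and 5 were not called in KO, among them Mrc1, the mannose receptor, with a log2 fold change of -1.56; in WT 0 rose, 4 fell and 4 were not called, with Mrc1 at -2.07. Their summed level was 334 to 965 CPM in WT ns, 180 to 553 CPM in WT LPS, 248 to 725 CPM in KO ns and 157 to 477 CPM in KO LPS, and none of the 8 was at 0 in all libraries of any of these groups. The part of these markers in the rise of Siglec1 was not tested. Of 6 monocyte markers, Vcan rose and Ccr2 fell in each genotype. Among all genes tested, 11.9% rose and 14.2% fell in KO, and 13.5% rose and 14.6% fell in WT. In bulk RNA a change in the number of cells of a type and a change in RNA per cell cannot be told apart.

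Siglece, the inhibitory Siglec of microglia and neutrophils, rose in both genotypes. WT ns libraries lay between 116 and 152 CPM (median 132) and WT LPS libraries between 242 and 414 CPM (median 303), with no overlap; 22.6% of all genes tested did not overlap between these groups. KO ns libraries lay between 49.4 and 122 CPM (median 113), and 7 KO LPS libraries between 216 and 272 CPM, with library 5 at 75.8 CPM inside the ns range. The log2 fold change was 1.13 ± 0.2 in KO (adjusted p = 7.5e-05) and 1.19 ± 0.23 in WT (adjusted p = 0.000256). It was 1.04 and 1.27 within set 1, and 1.34 (adjusted p = 0.0676) and 1.2 (adjusted p = 0.168) within set 2. None of the 8 neutrophil markers was called in either genotype, but their sums spread widely. They ran from 296 to 14284 CPM in WT ns (median 2160) and from 1671 to 12774 CPM in WT LPS (median 2516). In KO they ran from 262 to 9452 CPM at ns (median 789) and from 958 to 4253 CPM at LPS (median 2058). The part of these markers in the rise of Siglece was not tested.

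Siglecf, the eosinophil Siglec, fell, and its groups did not overlap in either genotype (22.6% of genes did not overlap between the WT groups and 7.1% between the KO groups). WT ns libraries stood at 31.7 to 50.1 CPM (median 38.2) and WT LPS libraries at 8.29 to 24.9 CPM (median 12.9). KO ns libraries stood at 31 to 50.1 CPM (median 33.7) and KO LPS libraries at 9.46 to 28.6 CPM (median 23.9). The log2 fold change was -0.68 ± 0.21 in KO (adjusted p = 0.0166) and -1.37 ± 0.25 in WT (adjusted p = 0.000114). Within sets, Siglecf changed by -0.48 (adjusted p = 0.106) in KO and -1.18 in WT in set 1, and by -0.79 (adjusted p = 0.301) and -1.46 (adjusted p = 0.0901) in set 2, so the KO change passed the test in neither set alone. Of 7 eosinophil markers 1 fell in KO, the eotaxin receptor gene Ccr3, a share near the 14.2% of all genes that fell. In WT 3 fell, Ccr3, Il5ra and Epx, where 14.6% of all genes fell. The sum of the 7 ran from 16.2 to 1162 CPM in WT ns and from 4.25 to 201 CPM in WT LPS. In KO the sum ran from 13.7 to 404 CPM at ns and from 2.27 to 89.8 CPM at LPS. None of the 7 was at 0 in all libraries of a group, and their part in the fall of Siglecf was not tested.

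Siglecg had the largest fall of the group. WT ns libraries lay between 13.0 and 36.3 CPM (median 16.1) and WT LPS libraries between 0.338 and 2.37 CPM (median 1.16). KO ns libraries lay between 3.07 and 17 CPM (median 10.0) and KO LPS libraries between 0.328 and 1.98 CPM (median 1.87). Neither genotype showed any overlap (22.6% of all genes tested did not overlap between the WT groups and 7.1% between the KO groups). After LPS these levels rest on 5 to 60 counts per library in WT and 8 to 89 in KO. The log2 fold change was -2.63 ± 0.37 in KO (6.18-fold, adjusted p = 3.4e-06) and -4.08 ± 0.46 in WT (16.9-fold, adjusted p = 8.9e-08). It was -2.70 in KO and -4.00 in WT within set 1, and -2.43 (adjusted p = 0.0588) and -4.03 (adjusted p = 0.0203) within set 2.

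B-cell transcripts moved with Siglecg and are given beside it. Of 8 B-cell markers 6 fell in KO and 7 in WT and 0 rose, where 14.2% and 14.6% of all genes fell. The marker sums were 438 to 517 CPM in WT ns, 87.6 to 173 CPM in WT LPS, 339 to 553 CPM in KO ns and 126 to 230 CPM in KO LPS. None of the 8 was at 0 in all libraries of a group. WT ns libraries 3 and 8, which had the highest Siglecg (32.9 and 36.3 CPM), also had the highest neutrophil marker sums of that group (14284 and 13353 CPM). The part of these markers in the fall of Siglecg was not tested.

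Cd33, the member with the highest level per kilobase of exon in ns libraries, spread widely after LPS. WT ns libraries stood at 1147 to 1566 CPM (median 1428) and WT LPS libraries at 585 to 1743 CPM (median 665), library 8 lying above every WT ns library. KO ns libraries stood at 1323 to 1809 CPM (median 1517) and KO LPS libraries at 499 to 1010 CPM in 7 cases and 2169 CPM in library 7 (median 963). Cd33 fell in KO by 0.66 ± 0.24 on the log2 scale (adjusted p = 0.0413) and had a log2 fold change of -0.62 ± 0.28 in WT (adjusted p = 0.0942). The KO call was lost in 16 of 41 alternatives, among them leaving out any 1 of KO ns 2, 3, 4 or 5 or of KO LPS 1, 2, 3, 4, 5, 6 or 8 (adjusted p up to 0.0894 over these), while the WT change was called without WT LPS 8 (log2 fold change -0.89, adjusted p = 0.0131), without KO LPS 7 (adjusted p = 0.0474) and in set 1 alone (-0.66, adjusted p = 0.0453). In KO, Cd33 changed by -0.83 in set 1 (adjusted p = 0.00604) and by -0.38 in set 2 (adjusted p = 0.793); in WT set 2 the value was -0.47 (adjusted p = 0.713).

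Cd22, the B-cell inhibitory receptor, overlapped throughout. It stood at 16.0 to 20.6 CPM in WT ns, 3.17 to 22.4 CPM in WT LPS, 5.78 to 30.8 CPM in KO ns and 6.51 to 32 CPM in KO LPS. The log2 fold change was -0.26 (95% interval -0.92 to 0.41) in KO and -0.35 (-1.11 to 0.42) in WT. A fall of the size seen for Siglecf in KO (-0.68) therefore lies within both intervals, as do larger falls down to their lower ends. Rises are covered only up to the upper ends.

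**Figure D2:**
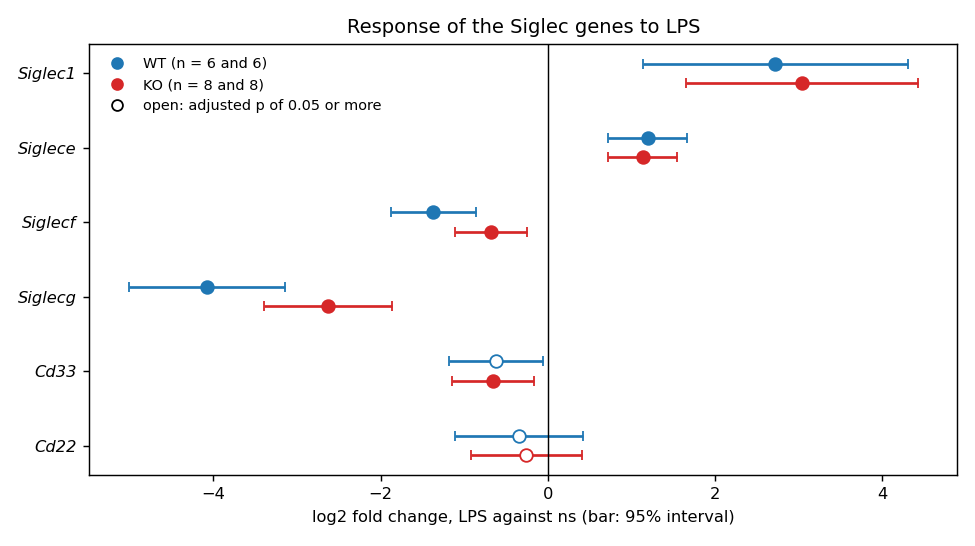
Log2 fold change of each Siglec gene after LPS against ns, with 95% intervals, for WT (blue) and KO (red) libraries; filled points passed an adjusted p of 0.05. The points of Siglec1 (3.04 in KO and 2.72 in WT) and Siglece lie right of 0, those of Siglecf and Siglecg left of it, and the intervals of the genotypes overlap for each of the 6.

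Mitochondrial transcripts moved with part of these levels. A total of 6 libraries, all in set 2, had summed mitochondrially encoded transcripts above 20000 CPM: KO ns 5 and 6 (23495 and 109861 CPM), KO LPS 5 (59255 CPM), WT LPS 7 (95913 CPM) and the number 2 libraries WT ns 5 and WT LPS 6 (28351 and 86237 CPM); the other libraries stood at 8298 to 17802 CPM. KO ns 5 and 6 had the lowest Siglec1 (7.22 and 2 CPM) and Siglece (65.1 and 49.4 CPM) of the KO ns libraries, and WT LPS 7 and KO LPS 5 had the lowest Siglec1 and Cd22 of their groups. Without these libraries the LPS change of Siglec1 was 3.02 in KO and 3.13 in WT, that of Siglece 1.11 and 1.25, that of Siglecf -0.55 (adjusted p = 0.0389) and -1.29, and that of Siglecg -2.71 and -3.88, all still called, while Cd33 in KO was not (-0.58, adjusted p = 0.0825).

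**Figure D3:**
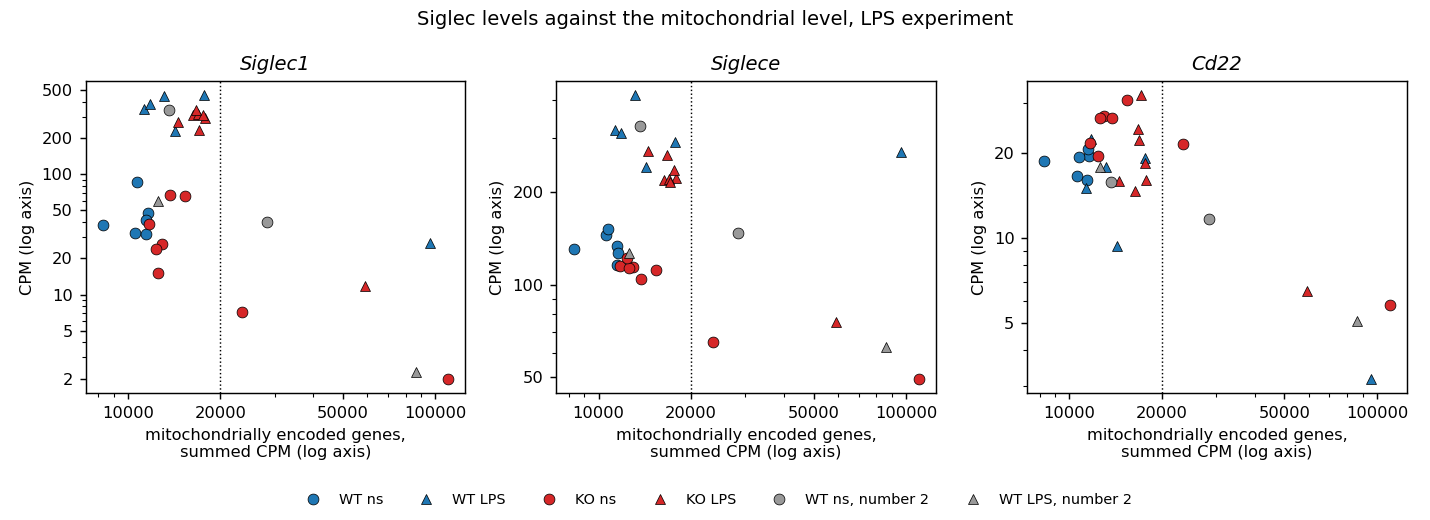
Siglec1, Siglece and Cd22 levels of each library of the LPS experiment against the summed level of mitochondrially encoded genes, both in CPM on log axes; the dotted line marks 20000 CPM and grey symbols are the WT libraries of number 2. The libraries right of the line include the lowest Siglec1 values of both KO groups, 2 CPM in KO ns 6 and 11.8 CPM in KO LPS 5.

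For Siglecg and Siglecf, the number 2 libraries labelled WT ns lay within or below the range of the other WT LPS libraries. Those labelled WT LPS lay above that range, and WT LPS 6 lay between the ranges of both groups. For Siglec1 and Siglece the position differed between libraries. Siglecg was at 1.08 and 0.248 CPM in the number 2 libraries labelled WT ns, within or below the range of the other WT LPS libraries, and at 18.9 and 6.83 CPM in those labelled WT LPS, above that range. Siglecf was at 14.6 and 15.2 CPM in the former, inside the range of the other WT LPS libraries, and at 31.1 and 26.7 CPM in the latter, between the ranges of both groups. For Siglec1 and Siglece, the library WT ns 1 lay among the other WT LPS libraries (341 and 330 CPM), whereas WT ns 5 lay inside the range of its own label (39.8 and 147 CPM). WT LPS 1 (60.0 and 127 CPM) lay inside the WT ns range of both genes, and WT LPS 6 (2.25 and 62.5 CPM) lay below both groups. With every library in its labelled group, 0 genes of 15857 were called in WT by edgeR (3605 at an unadjusted p under 0.05), and the WT changes were 1.61 for Siglec1 (adjusted p = 0.191), 0.69 for Siglece (0.148), -0.80 for Siglecf (0.13) and -2.05 for Siglecg (0.128); in KO, Siglecf was then at -0.69 with an adjusted p of 0.0659. With number 2 left out in all 4 groups, 4 members were called in each genotype, and Cd33 in KO was at -0.61 (adjusted p = 0.125).

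P2RY12 deficiency was not accompanied by a called change in any of the 6 in the LPS table. At ns 16 of 17954 genes were called (0.0891%) and at LPS 14 (0.078%), with 0 members in either by edgeR and 0 by DESeq2; 2 members had an unadjusted p under 0.05 in each (9.27% of genes at ns and 6.1% at LPS). At ns these were Siglecg, lower in KO with a log2 difference of -1.19 ± 0.37 (unadjusted p = 0.00329, adjusted p = 0.394; 95% interval -1.96 to -0.43), and Siglece at -0.46 ± 0.21 (adjusted p = 0.524). At LPS they were Siglece at -0.52 ± 0.21 (adjusted p = 0.693) and Siglecf at 0.56 ± 0.23 (adjusted p = 0.695). The groups overlapped for every member (0.713% of genes did not overlap at ns and 0.223% at LPS). The 2 WT ns libraries with high neutrophil sums, 3 and 8, also carry the highest Siglecg of their group, and their part in the Siglecg difference was not tested. On the KO side, the ns libraries 5 and 6 had mitochondrial sums of 23495 and 109861 CPM. These libraries carry the lowest Siglecg (4.53 and 3.07 CPM) and Siglece (65.1 and 49.4 CPM) of the KO ns group.

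Whether the LPS response differed between genotypes was tested with an interaction term. No gene was called by edgeR (890 at an unadjusted p under 0.05, 4.96%, and 3 called by DESeq2, none a member). Siglecg, with a fall smaller in KO by 1.45 ± 0.55 on the log2 scale, had an unadjusted p of 0.0131, and Siglecf, smaller by 0.69 ± 0.32, an unadjusted p of 0.0406; the adjusted p of each was 0.784. For Siglec1, Siglece, Cd33 and Cd22 the 95% intervals of the interaction ran from -1.64 to 2.27, -0.68 to 0.56, -0.78 to 0.70 and -0.92 to 1.1, so differences of those sizes were not resolved. For Siglecg the sign turned to -0.58 with every library in its labelled group.

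In the sex experiment, Cd33 and Siglece had the highest levels per length, and they were the members with an SD under 20% of the mean in every group (up to 6.62% for Cd33 and 18.4% for Siglece, against up to 84.2% for Siglecg). The length given in this table is the whole gene span for all 50565 genes, introns included, so levels are given on 2 scales. Per kilobase of exon, male WT animals had Cd33 at 61.1 ± 3.3, Siglece at 58.3 ± 7.59 and Siglecf at 10.8 ± 2.86 CPM per kb (SD, n = 4), Cd33 and Siglece lying within their spread of each other. Cd22 at 3.70 ± 0.84, Siglecg at 2.90 ± 2.44 and Siglec1 at 1.75 ± 0.52 CPM per kb of exon came last. The animals of Siglecg (1.54 to 6.54) overlapped those of Cd22 (2.75 to 4.66) and of Siglec1 (1.04 to 2.2), while Cd22 and Siglec1 did not overlap. Per kilobase of span, Cd33 at 48.2 ± 2.6 stood apart from Siglece at 11.9 ± 1.54 CPM per kb, so the gap between these genes depended on the length used. Saa3 was at 0.362 CPM or less in all 18 animals. The tables were counted separately, so levels were not compared between them.

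**Figure D4:**
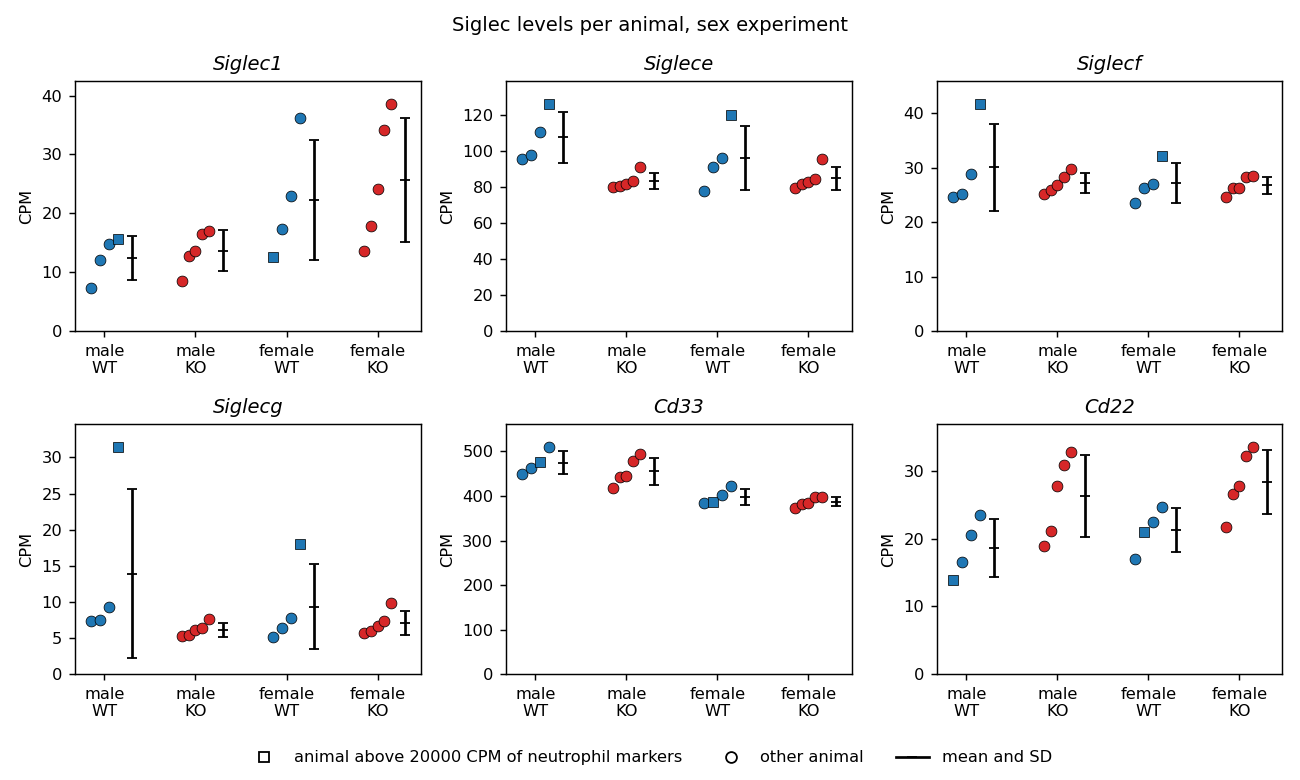
Level of each Siglec gene in each animal of the sex experiment, in CPM on linear axes from 0; squares are the animals above 20000 CPM of neutrophil markers, and the black marks are the mean and SD of each group. Cd33 lies lower in females (374 to 422 CPM) than in males (418 to 510 CPM), Siglece of KO males lies below that of WT males, and the highest Siglecg of WT males and of WT females belong to squares.

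Between KO and WT, 0 members were called in this table by the fit without a block for replicate number. The male contrast called 3 of the 31709 genes tested (0.00946%), the female contrast 52 (0.164%) and the mean of both sexes 137 (0.432%), with 0 members in each by edgeR and by DESeq2. Siglece stood at 96.0 to 126 CPM in male WT and 80.1 to 91.6 CPM in male KO animals, without overlap (1.97% of genes did not overlap in males), and at 78 to 120 CPM in female WT and 79.8 to 95.9 CPM in female KO animals, which overlapped (2.19% of genes did not). Its log2 difference over both sexes was -0.28 ± 0.07 (unadjusted p = 0.00128, adjusted p = 0.142). Cd22 stood at 13.8 to 23.5 CPM in male WT, 18.9 to 32.8 CPM in male KO, 17 to 24.6 CPM in female WT and 21.8 to 33.5 CPM in female KO animals, and its difference was 0.45 ± 0.13 (unadjusted p = 0.00212, adjusted p = 0.189). Siglecg was -0.78 ± 0.3 (adjusted p = 0.495); for Siglec1, Siglecf and Cd33 the 95% intervals ran from -0.36 to 0.70, -0.27 to 0.10 and -0.15 to 0.05.

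A pair of WT animals carried much of the Siglecg difference. Male WT 5 had Siglecg at 31.4 CPM against 7.40 to 9.36 CPM in the other male WT animals, and female WT 2 had 18.0 CPM against 5.16 to 7.86 CPM; the same animals had neutrophil marker sums of 42081 and 24892 CPM, against 646 to 6737 CPM in the other 16, and eosinophil sums of 2336 and 1534 CPM. Without these 2 animals, a step chosen after seeing the data, the KO difference over both sexes was -0.12 for Siglecg, -0.17 for Siglece (adjusted p = 0.33) and 0.39 for Cd22 (adjusted p = 0.377). In males alone the differences over all animals were -1.17 for Siglecg, -0.37 for Siglece and 0.50 for Cd22, and in females -0.39, -0.18 and 0.41. The sex-by-genotype interaction called 0 genes by edgeR and 0 by DESeq2, with 879 at an unadjusted p under 0.05 (2.77%).

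Between the sexes of this table, a comparison added after seeing the data, Cd33 was lower in females. Male animals had 450 to 510 CPM in WT and 418 to 493 CPM in KO, and female animals 384 to 422 CPM in WT and 374 to 398 CPM in KO; the sexes did not overlap within WT (4.64% of genes) or within KO (2.53%). The log2 difference of females from males was -0.24 ± 0.05 (adjusted p = 0.0128; 1.18-fold), where 0.861% of genes were called and 0.233% were called lower, and the adjusted p ran from 0.000132 to 0.0429 over 25 alternatives. In the LPS experiment, where sex cannot be told apart from library set, Cd33 overlapped between the sets at ns. WT ns libraries stood at 1147 to 1549 CPM in set 1 (male) and 1321 to 1566 CPM in set 2 (female). KO ns libraries stood at 1323 to 1732 and 1362 to 1809 CPM. Siglec1 was at 7.41 to 17 CPM in males and 12.5 to 38.6 CPM in females, a difference of 0.87 ± 0.25 (adjusted p = 0.145) that DESeq2 called (adjusted p = 0.0107).

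Genes of the machinery around the receptors are read against the share of all genes tested that LPS changed, 26.2% in KO and 28.1% in WT. Of 10 genes of ITIM signalling, 3 rose in KO and 4 in WT and 0 fell, where 11.9% and 13.5% of all genes rose. The number called in KO is a share near that of all genes called in either direction. Among those that rose were the kinase Fgr (log2 fold change 2.94 in KO and 2.31 in WT) and Ptpn6, which encodes SHP-1 (0.64 and 0.57). In WT the kinase Lyn (0.48) also rose. The list medians were 0.24 and 0.30. Of 4 genes of the DAP12 adaptor axis 1 fell in each genotype, the lipid receptor Trem2 (-1.47 in KO and -1.44 in WT), a share near that of all genes, and the medians were -0.18 and 0.07. Siglech, the DAP12-coupled family member, fell by 2.32 in both genotypes. Mag, the myelin Siglec, was not called in either, and Siglec15 was at or near 0 throughout the LPS table.

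Among genes that make the ligands, more sialyltransferases fell than rose in each genotype. For comparison, 11.9% of all genes tested rose after LPS in KO and 13.5% in WT, while 14.2% and 14.6% fell. In the list of sialic acid synthesis and turnover, 1 rise among 8 genes in KO is a share near that of all genes. No direction is therefore read from this list in KO, and in WT 3 of its genes rose and 1 fell. Of 15 sialyltransferases tested, which attach sialic acid to glycans, 2 rose and 7 fell in KO and 0 rose and 8 fell in WT (medians -0.41 and -0.78). In KO St3gal6 (-1.59) and St6gal1 (-1.65), the enzyme that makes the ligand preferred by Cd22, had the lowest adjusted p among those that fell, and St3gal1 (1.57) and St3gal4 (0.67) rose; in WT St6gal1 (-2.22) and St8sia4 (-2.04) led. The remaining 6 in KO and 7 in WT were not called. Of 8 genes of sialic acid synthesis and turnover 1 rose and 0 fell in KO, Nans (0.52), and in WT 3 rose, Nans (0.35), Cmas (0.62) and the CMP-sialic acid transporter Slc35a1 (0.93), while Cmah, which converts the sialic acid Neu5Ac to Neu5Gc, fell (-1.19). The 2 sialidases tested were not called. Between genotypes the 5 lists gave 1 call, St8sia6, higher in KO over both sexes by 0.58 ± 0.12 (adjusted p = 0.0362).

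Across the 32 libraries of the LPS fit, all of which share the LPS contrast, the genes most alike each member were found by Spearman correlation of log2 CPM and are given as a description. Siglec1 was closest to Sh3pxd2b (rho 0.93, and 0.80 over the 18 animals of the sex table), Rftn1 (0.91 and 0.70) and Anpep (0.91 and 0.57). Siglece was closest to Lrrc25 (0.97 and 0.77), to Ptpn6 (0.94 and 0.68), which encodes the phosphatase its motif recruits, and to Mmp14 (0.93 and 0.15). Siglecf was closest to Trp53cor1 (0.93 and -0.41), AC160562.1 (0.93) and its neighbour Siglecg (0.91 and 0.53), and Siglecg to Nhsl2 (0.95 and 0.61) and Cdc42ep3 (0.94 and 0.39). Cd33 was closest to Casc4 (0.91), Gm40841 (0.89 and 0.53) and Rab31 (0.89 and 0.24), and Cd22 to Tmem181b-ps (0.84 and 0.40), Lrp4 (0.82 and 0.17) and Pnpla7 (0.79 and 0.60). Among the members themselves, Siglec1 and Siglece had rho 0.83 in the LPS table and -0.26 in the sex table.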

How the data were processed

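Both deposited tables hold raw counts per gene; per the submitters' processing notes the tools were FastQC, STAR 2.6.1, featureCounts, Subread and DESeq2 with build GRCm39, with no roles given. Of the 57 labelled samples, 6 repeat libraries have no column and were not used; 18 columns of the sex table and 33 of the LPS table were mapped by name, and 0 columns lacked a sample. For the sex experiment, 79.0% to 89.2% of counts up to 20 per library were even (39.7% to 45.6% in the LPS table), and whether both mates of a pair were counted is not given in the sources used here. The members and lists were chosen with earlier results of these data known.

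Each table was fitted with edgeR 4.0.16 (R 4.3.3; TMM scaling, filterByExpr, robust quasi-likelihood F test), with all groups in 1 fit and, for LPS, the library set as covariate; p-values were Benjamini-Hochberg adjusted over all genes tested (31709 and 17954) and called under 0.05. Levels are CPM on the TMM-scaled total; exon length is the union of GENCODE M21 exons. Per the file headers, the length in the sex table equals the gene span for all 50565 genes, so reads in introns may be counted there; the region counted in the LPS table is not given in the sources used here. The biological coefficient of variation was 35.3% and 42.3%. Standard errors are the fold change divided by the square root of F. The scripts were tested on simulated data with 200 genes changed by a log2 fold of 1 in either direction. For LPS against ns, 58.5% of these were recovered in KO and 41.5% in WT. For KO against WT, 84.5% were recovered in males and 83.5% in females. Changes of this size can thus go uncalled, more often in the LPS table. The changed genes had a mean of at least 5 CPM, and 200 changed genes ease the adjusted threshold. In the data the male KO against WT contrast called 3 genes, so recovery there can be lower than simulated. Named genes are the members, the 3 genes most alike each (mean of at least 5 CPM), P2ry12 and Saa3, the other Siglecs, and called list genes (all when 5 or fewer, otherwise the 2 lowest adjusted p in each direction). Some genes that this rule names are not reported here. Alternatives were DESeq2 1.42.0, RLE scaling, other filters, a replicate block, each library left out, and other treatments of the number 2 libraries. The leave-outs by mitochondrial and neutrophil level, above 20000 CPM, and the comparison of the sexes were added after seeing the data.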

Additional observations from a re-analysis of the deposited data

Results flagged for a closer look

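In 48 combinations of gene and group of 4 to 10 libraries, 7 had an end value set apart by more than Dixon's 95% critical value; chance flags about 1 in 20 groups. Siglecg in male WT 5 was at 31.4 CPM against 7.40 to 9.36 CPM in the other animals of its group. Siglec1 in KO LPS 5 was at 11.8 CPM against 233 to 339 CPM, and Siglece in the same library at 75.8 CPM against 216 to 272 CPM; this library had 59255 CPM of mitochondrially encoded transcripts. Siglec1 in WT ns 8 was at 86.4 CPM against 31.7 to 47.7 CPM, and this library had Saa3 at 64.7 CPM. Siglecf in KO ns 2 was at 50.1 CPM against 31 to 38.0 CPM. Cd33 in KO LPS 7 was at 2169 CPM against 499 to 1010 CPM. Cd22 in KO ns 6 was at 5.78 CPM against 19.4 to 30.8 CPM, in the library with 109861 CPM of mitochondrially encoded transcripts.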

How the results depend on the processing

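In 41 alternatives each for the LPS comparisons and 25 each for the sex table, the LPS changes of all 6 members kept their sign, and 63 of 1980 member values over all comparisons took the other sign, all of them in comparisons in which the member was not called. Leaving out 1 library at a time kept the calls of Siglec1, Siglece, Siglecf and Siglecg in both genotypes and gave 4 to 5 members called in each. The number of members called fell from 5 to 0 in KO in library set 2 alone; in WT it was 0 with every library in its labelled group and 1 (Siglecg) in set 2 alone. Over the mean of both sexes 1 member, Cd22, was called with the replicate block (log2 difference 0.45, adjusted p = 0.0119), and between the sexes 2 members, Cd33 and Siglec1, were called with DESeq2 and with the replicate block (Siglec1 at 0.96, adjusted p = 0.0462); the block changed no member's call in the LPS table. In the sex table the 8 same-numbered pairs had a mean correlation of 0.126 (from -0.054, 5 over 0.1). The 32 pairs of unlike number had a mean of -0.030 (7 over 0.1). In the LPS table the mean was 0.074 over 35 same-numbered pairs (from -0.386, 10 over 0.1). It was -0.014 over 111 pairs of unlike number (31 over 0.1). Same-numbered samples thus lay higher on average but did not all deviate together, and not every sample correlated best with its own number. The labels do not say what the numbers mark, so they were not taken to pair samples, and a pairing is not excluded. No other member was called between genotypes in any alternative. Siglecg in female KO against WT turned to 0.14 without the animals of high neutrophil markers (range -0.59 to 0.14 when each animal was left out), Siglecf over both sexes to 0.062 without them (range -0.13 to 0.015 when each animal was left out), and the genotype-by-LPS interaction of Siglecg to -0.58 with every library in its labelled group. The cause was not tested. Depth limits Siglecg after LPS, where libraries held as few as 5 counts.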
